A study of Mus musculus with 24 samples.

Results

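The genes of the cytosolic ribosomal proteins were followed across 6 states of cultured mouse macrophages. A gene was a member if it was protein-coding, carried a ribosomal protein symbol (Rpl or Rps with a number, Rplp0, Rplp1, Rplp2 or Rpsa, without the Rps6k kinases) and had at least 2400 counts summed over 24 libraries. Of 56884 genes in the count table, 93 protein-coding genes matched the names and 78 passed the count minimum. They comprised 42 proteins of the large subunit, 28 of the small subunit, the 3 P stalk proteins and 5 genes that are paralogs of a ribosomal protein or bind one (Rpl22l1, Rpl7l1, Rps27l, Rps4l and Rps19bp1). Just above the minimum lay Rpl38 with 2822 counts, Rpl27 with 2853 and Rps6 with 2927, and just below it lay Rps23 with 1765, Rpl35rt with 1722 and Rpl9-ps6 with 1397. All 78 members also passed the filter on low counts, so each was tested.

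The ribosome is built from a large and a small subunit, and the proteins studied here are needed in near equal numbers with the ribosomal RNAs they coat. Many of their mRNAs begin with a C followed by a run of pyrimidines, the terminal oligopyrimidine (TOP) motif, through which the kinase complex mTORC1 and the RNA-binding protein LARP1 set their translation and stability. Ribosomal proteins made in excess are normally degraded, and some that stay free, such as Rpl5 and Rpl11, bind the p53 regulator Mdm2.

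RNA-seq was performed on bone marrow–derived macrophages (BMDM) of wild-type C57BL/6J female mice aged 9 weeks. Mice 1, 2, 4 and 5 each gave 1 culture per state, so every group had 4 libraries. Naive macrophages received no cytokine, and the second group received IL-4 and IL-13 at 20 ng/ml each for 24 hours. The remaining groups received these cytokines with an inhibitor given 1 hour ahead. Tunicamycin at 5 µg/ml blocks N-glycosylation of proteins in the endoplasmic reticulum. Sal003 at 10 µM, a derivative of salubrinal, slows the dephosphorylation of the initiation factor eIF2α. The last 2 groups received 1 µM oligomycin, an inhibitor of the ATP synthase of mitochondria, and 1 of them also received ISRIB at 1 µM, which counteracts the effect of phosphorylated eIF2α on translation. The sample titles and treatment entries give ISRIB to the libraries named Oligo, whereas the library names give it to those named Oli_ISR. No reading was chosen, and the groups are called by their library names.

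Between 16238727 and 26725278 counts per library fell on genes. Macrophage markers were abundant in every group, and the summed level of 8 of them (Adgre1, Csf1r, Cd68, Itgam, Mertk, Fcgr1, Lyz2 and Cd14) ranged from 9179 to 36575 CPM, highest in naive cells. CPM, the level used here, are counts per 1000000 counts on genes. For the CPM of members and Arg1 and for all tests, library sizes were scaled by the trimmed mean of M-values (TMM). Marker sums and shares of counts are given without this scaling. The naive library of mouse 2 stood apart for the members: all 78 were above the mean of the other 3 naive libraries, with a median log2 ratio of 0.55, whereas the other 3 naive libraries had medians of -0.16, -0.21 and -0.27. It held 0.057 CPM of Arg1, a gene induced by IL-4, against 405 to 475 CPM in the IL-4/IL-13 libraries. The macrophage markers summed to 36575 CPM in it and to 32045 to 36214 CPM in the other naive libraries. Because all groups share 1 estimate of spread in the test, this library touches every comparison, and counts of called members are given with and without it.

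**Figure D1:**
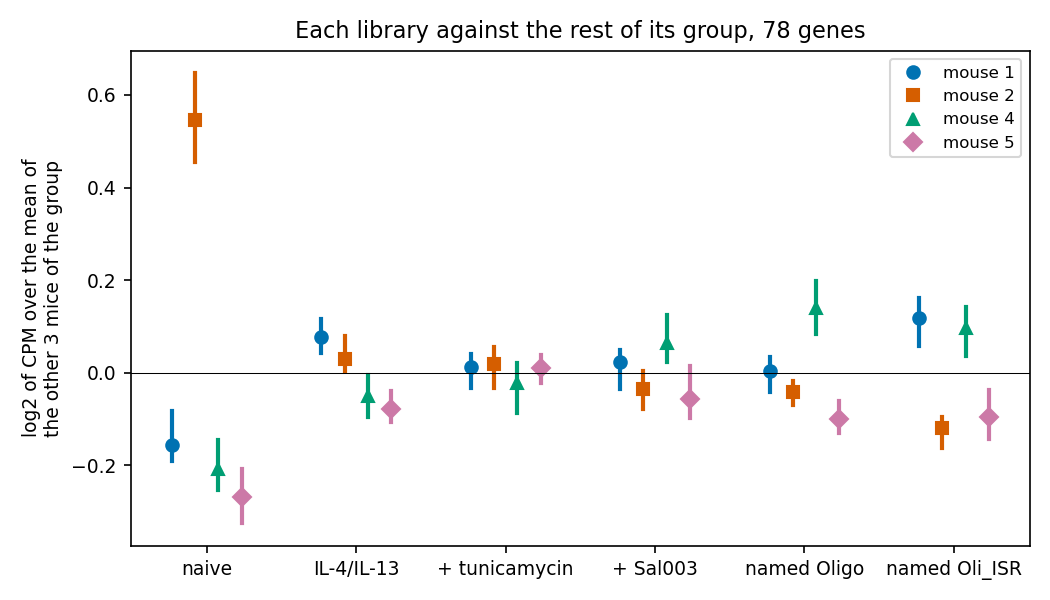
Log2 of each member's CPM over the mean of the other 3 mice of its group, for 24 libraries on the x axis by group; points are medians over 78 members and bars span the middle 50% of the members. Naive mouse 2 lies at 0.55, while every library outside the naive group lies between -0.12 and 0.14.

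Levels of the members per kilobase of the canonical transcript spanned a wide range, from 2.28 to 1111 CPM/kb with a median of 128, as means over the 6 groups. Rplp1 (1111 CPM/kb) and Rplp0 (855 CPM/kb), which form the stalk that recruits elongation factors, were highest. They were followed by Rpl41 (719 CPM/kb), a very short peptide of the large subunit, and Rps4x (572 CPM/kb), the X-linked copy of Rps4. Rpl31 (2.28 CPM/kb), Rpl5 (3.73 CPM/kb), Rps4l (4.87 CPM/kb) and Rps6 (7.03 CPM/kb) were lowest. The proteins of Rpl31, Rpl5 and Rps6 are core subunits. Of stretches of 150 bases along the canonical transcript, 0.5% for Rpl31, 5.4% for Rpl5 and 25.3% for Rps6 also matched the genome outside the gene with at most 1 mismatch. The part of read assignment in these low values was not tested. The canonical transcripts of Rpl31 and Rpl5 are 4122 and 3646 bases long, against coding lengths of 375 and 891 bases, and per kilobase of coding sequence their levels were 25.1 and 15.3 CPM. Reads that match several loci were not counted, and many ribosomal protein genes have processed pseudogenes: 403 genes of any type carried a matching name. Levels therefore rank what was counted uniquely. The mean level of a member in its highest group exceeded that in its lowest by 1.10-fold to 2.88-fold, with a median of 1.34-fold. Rpl37a had the widest range.

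**Figure D2:**
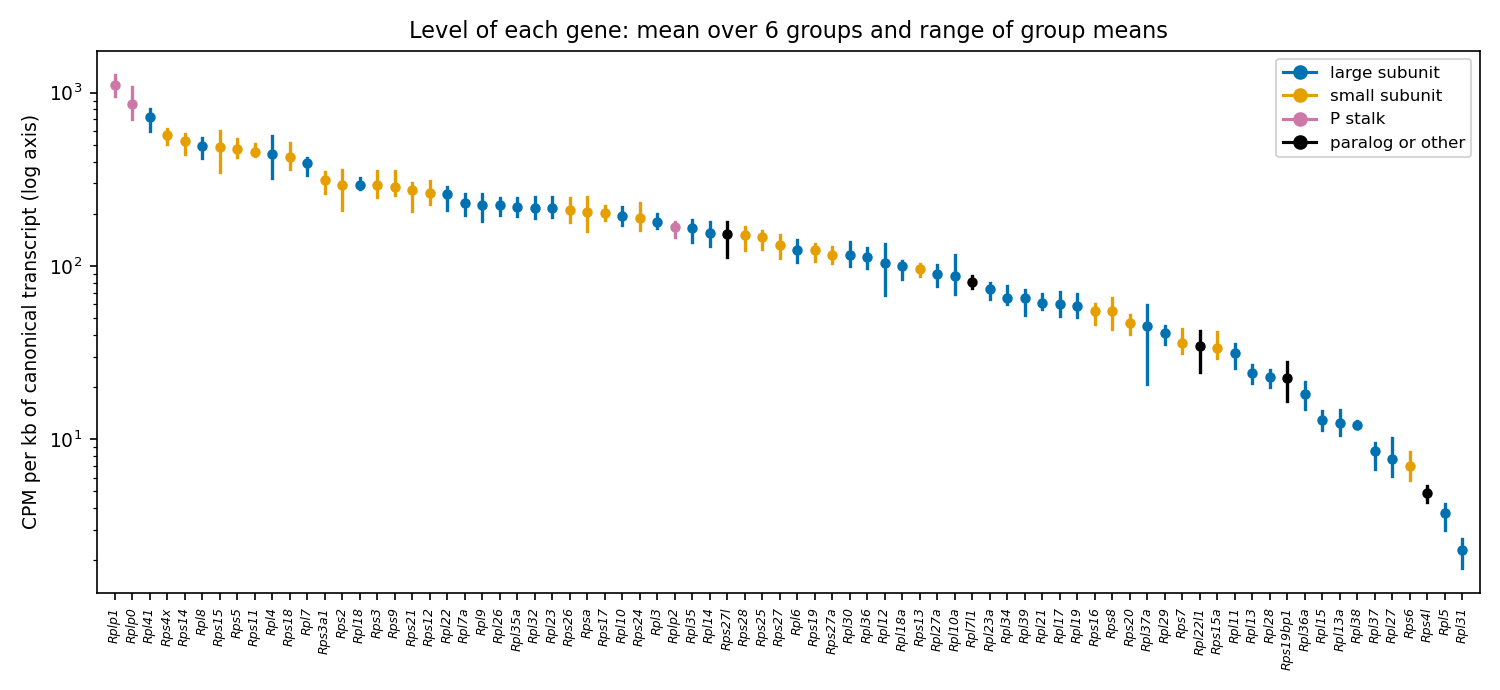
Level of each member in CPM per kb of canonical transcript on a log axis, ordered from high to low and coloured by class; points are means over the 6 groups and bars span the lowest to the highest group mean. Levels run from 1111 CPM/kb for Rplp1 to 2.28 CPM/kb for Rpl31, whereas each bar is short beside that range.

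A TOP motif was looked for on the gene strand as a C that starts between 5 bases before and 10 bases after the RefSeq start and is followed by at least 4 letters that are C or T. The RefSeq promoter table (GRCm38.p6) held 58 of the 78 members, and 32 of these (55.2%) had the motif, against 27.7% of 27025 gene symbols. With the C required exactly at the annotated start, 12 of 58 members (20.7%) and 3.01% of all symbols had it. With the starts of any protein-coding GENCODE transcript, the counts were 27 of 78 members (34.6%) and 8.59% of genes. The windows below run from 10 bases before to 20 bases after the RefSeq start, were located in GRCm39 by unique match, and show members whose values are described later. Capitals mark the motif.
Rps2, chr17:24939027-24939056, plus strand: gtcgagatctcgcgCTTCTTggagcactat
Rpl12, chr2:32851714-32851743, plus strand: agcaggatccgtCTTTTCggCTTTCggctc
Rpl13a, chr7:44778150-44778179, minus strand: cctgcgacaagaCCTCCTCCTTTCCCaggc
Rps24, chr14:24540736-24540765, plus strand: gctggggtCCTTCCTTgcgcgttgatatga
Rpl31, chr1:39406922-39406951, plus strand: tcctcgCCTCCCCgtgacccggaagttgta
Rpl4, chr9:64080659-64080688, plus strand: tttcctgtgggagcagccgggtagagagga
Rpl37a, chr1:72750409-72750438, plus strand: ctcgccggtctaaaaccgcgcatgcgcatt
Rps15, chr10:80128255-80128284, plus strand: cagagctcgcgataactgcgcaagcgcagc
The windows of Rpl4, Rpl37a and Rps15, members with some of the largest changes below, held no such run. A member counted as having the motif if any of its RefSeq starts had it, and a second start of Rps24 (chr14:24540811-24540840) held none.

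The members together took between 1.26% and 1.85% of the counts on genes. In mice 1, 2, 4 and 5 the share was 1.35%, 1.82%, 1.26% and 1.27% in naive cells (1.42% ± 0.27, SD, n = 4) and 1.64%, 1.59%, 1.49% and 1.52% with IL-4/IL-13 (1.56% ± 0.069). The naive mean was 1.29% without mouse 2. Tunicamycin cells had 1.55%, 1.53%, 1.48% and 1.54% (1.53% ± 0.032), and Sal003 cells 1.44%, 1.40%, 1.45% and 1.37% (1.42% ± 0.037). The libraries named Oligo had 1.78%, 1.73%, 1.85% and 1.69% (1.76% ± 0.065), and those named Oli_ISR 1.66%, 1.50%, 1.64% and 1.51% (1.58% ± 0.084). All 4 Oligo libraries lay above all 4 IL-4/IL-13 libraries and all 4 Sal003 libraries lay below them, whereas tunicamycin and Oli_ISR overlapped the IL-4/IL-13 values. These shares are descriptions without a test and without TMM scaling. The TMM factors of all 4 Sal003 and all 4 Oli_ISR libraries lay below those of all 4 IL-4/IL-13 libraries. Those of tunicamycin and of the Oligo libraries were mostly above them. The placing of Sal003 and tunicamycin against IL-4/IL-13 therefore depends on this scaling. So does how far the Oligo and Oli_ISR libraries lie from IL-4/IL-13 and from each other. A share of a library cannot tell a change in the members from a change in the other genes, and bulk RNA cannot tell fewer cells from less RNA per cell.

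**Figure D3:**
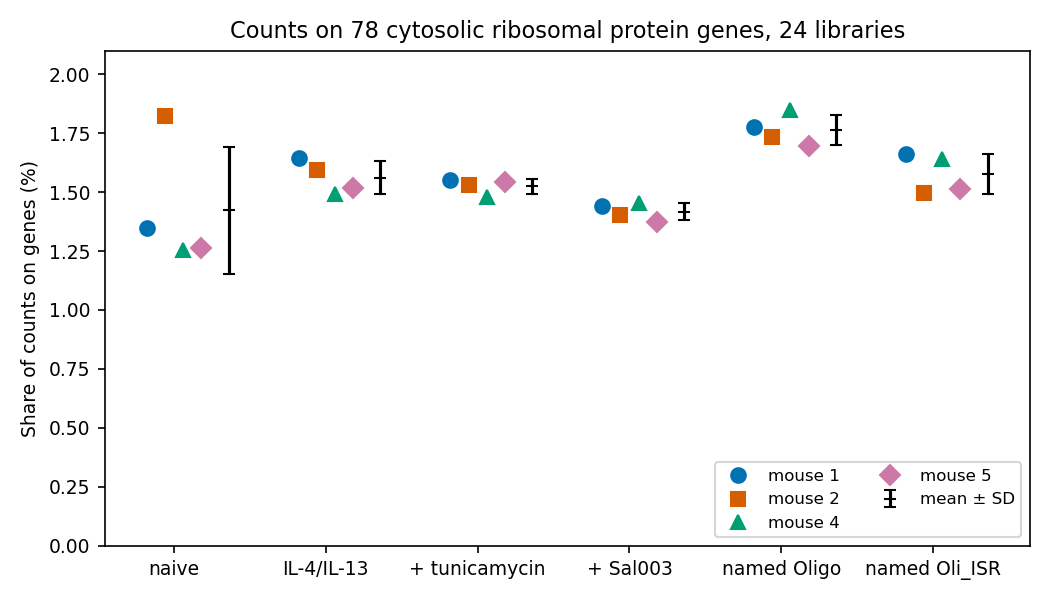
Share of counts on genes taken by the 78 members, in percent and without TMM scaling, for each of 24 libraries by group. The mean and SD of 4 mice are beside them. The Oligo libraries lie between 1.69% and 1.85%, and naive mouse 2 lies at 1.82%, away from the other naive libraries at 1.26% to 1.35%.

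The first comparison asked how IL-4 and IL-13 changed these genes in naive macrophages. In the edgeR fit (quasi-likelihood test, p-values adjusted by Benjamini-Hochberg over all 13679 genes tested), 24 members were higher and 2 lower after IL-4/IL-13, with a median log2 fold change of 0.14. Among all genes, 30.1% were called higher and 30.4% lower. Without the naive library of mouse 2, 63 members were higher and 1 lower with a median of 0.29, when 33.0% and 30.6% of 13818 genes were called higher and lower. No member reached the 2.5-fold change that the study uses, which 11.5% of all genes passed; the largest change was that of Rpl10a.

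Rpl10a, the protein of the mobile L1 stalk where spent tRNA leaves, showed 82.7, 87.8, 71.0 and 70.0 CPM in naive cells of mice 1, 2, 4 and 5 and 141, 133, 116 and 135 CPM after IL-4/IL-13. The groups did not overlap, and the log2 fold change was 0.75 ± 0.072 (SE, adjusted p = 1.7e-09). Rpl12, at the base of the P stalk, had 81.6, 117, 81.9 and 78.4 CPM in naive cells and 139, 140, 131 and 127 CPM after the cytokines, a log2 change of 0.58 ± 0.090 (adjusted p = 4.7e-06). Rps2, a small subunit protein near the mRNA entry, rose from 219, 290, 209 and 207 CPM to 355, 344, 334 and 317 CPM, by 0.55 ± 0.079 (adjusted p = 1.5e-06). Neither gene's groups overlapped, although naive mouse 2 was the highest naive library for both. Rpl36a (0.52 ± 0.13, adjusted p = 0.0015) and Rpl27 (0.40 ± 0.11, adjusted p = 0.0037) rose from low levels under 12 CPM. The call for Rpl27 was lost without mouse 1 (adjusted p = 0.055).

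Both members called lower moved with naive mouse 2. Rps9, a small subunit protein that binds early to 18S rRNA, had 597, 868, 575 and 556 CPM in naive cells and 549, 539, 519 and 512 CPM after IL-4/IL-13. Its log2 change was -0.29 ± 0.086 (adjusted p = 0.0048), and without that library -0.11 (adjusted p = 0.022). Rpl7a, a large subunit protein whose gene also holds snoRNAs, had a log2 change of -0.13 ± 0.053 (adjusted p = 0.037), which was -0.05 without naive mouse 2 (adjusted p = 0.36) and was not called without any single mouse (adjusted p = 0.093 to 0.2). Of the 42 large subunit members 14 were higher and 1 lower, and of the 28 small subunit members 6 were higher and 1 lower. The number of higher members was 9, 58, 11 and 12 when mouse 1, 2, 4 or 5 was left out of all groups, and 1 was lower in each case. For the fits without a mouse, here and below, the share of all genes called was not counted. A shift in the number of called members there cannot be told from a shift over all genes.

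The inhibitors were each compared with IL-4/IL-13 alone, and these comparisons share the IL-4/IL-13 libraries. With tunicamycin, 29 members were lower and 9 higher with a median log2 fold change of -0.14, against 37.7% of all genes lower and 38.7% higher. Without naive mouse 2, 36 were lower and 14 higher (37.4% and 41.1% of all genes). Large subunit members fell in 20 of 42 cases and rose in 4, and small subunit members fell in 9 of 28 and rose in 2. Only Rpl37a changed by at least 2.5-fold, as did 22.6% of all genes.

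Rpl37a, a small zinc-binding protein of the large subunit, had 188, 222, 213 and 189 CPM with IL-4/IL-13 and 71.8, 82.9, 77.7 and 78.9 CPM with tunicamycin. Every tunicamycin library lay below every library of the other groups, and the log2 change was -1.38 ± 0.12 (adjusted p = 1.6e-10). Rps15, in the head of the small subunit, fell from 347, 320, 318 and 325 CPM to 187, 187, 194 and 188 CPM, by -0.79 ± 0.10 (adjusted p = 1.1e-07). Rpl10a, which had risen with the cytokines, was at 87.1, 85.3, 88.1 and 89.2 CPM, a log2 change of -0.58 ± 0.071 (adjusted p = 6.3e-08). For both genes the tunicamycin libraries lay below all IL-4/IL-13 libraries. Rpl31, near the exit of the peptide tunnel, changed by -0.56 ± 0.10 (adjusted p = 1.7e-05) and Rps21 by -0.52 ± 0.12 (adjusted p = 0.00032). Rps2 changed by -0.25 ± 0.078 (adjusted p = 0.0061), a call lost without mouse 1 (adjusted p = 0.086) or mouse 4 (adjusted p = 0.091).

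A smaller set rose with tunicamycin. Rps19bp1, which encodes a binding partner of Rps19 and of the deacetylase Sirt1 and is no part of the mature ribosome, rose from 15.8, 16.6, 14.8 and 15.5 CPM to 21.8, 24.3, 23.3 and 23.9 CPM (0.57 ± 0.090, adjusted p = 3.4e-06). Rplp0, the scaffold of the P stalk, rose from 1146, 1130, 1088 and 1105 CPM to 1491, 1483, 1445 and 1484 CPM (0.40 ± 0.061, adjusted p = 2e-06). Rpl4, which lines the peptide tunnel, rose from 778, 755, 757 and 712 CPM to 965, 945, 948 and 966 CPM (0.35 ± 0.046, adjusted p = 2e-07). In all 3 genes the groups did not overlap. Rpl13a (0.35 ± 0.10, adjusted p = 0.0038), known also for a role in silencing inflammatory mRNAs, and Rpl27 (0.34 ± 0.11, adjusted p = 0.0058) rose from lower levels. Without mouse 1 or mouse 4, 18 and 19 members were lower with tunicamycin in place of 29, and without mouse 2, 14 were higher. The median was -0.0793 without mouse 1 and -0.0788 without mouse 2.

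**Figure D4:**
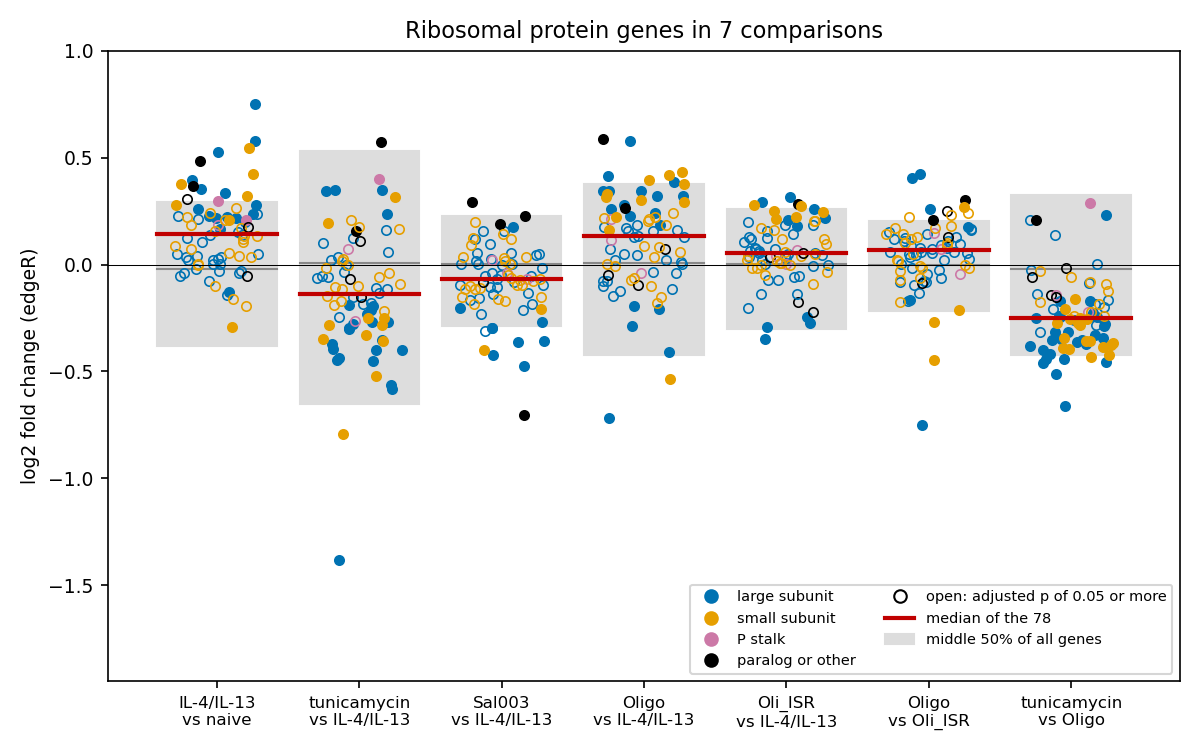
Log2 fold changes (edgeR) of the 78 members in 7 comparisons, coloured by class, with open points for an adjusted p of 0.05 or more, red lines for the median of the members and grey bands for the middle 50% of all genes. The medians run from -0.25 for tunicamycin against Oligo to 0.14 for IL-4/IL-13 against naive, and Rpl37a with tunicamycin is the lowest point at -1.38.

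With Sal003, 11 members were lower and 4 higher with a median log2 fold change of -0.07, while 24.6% of all genes were lower and 25.9% higher. Without naive mouse 2, 23 were lower and 7 higher (27.0% and 28.0% of all genes). With total counts in place of TMM for scaling, 29 were lower and 1 higher, but this scaling also moved the median of all genes by -0.09. The largest change, that of Rpl22l1, was under 2.5-fold, a size that 7.71% of all genes reached.

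Rpl22l1, the paralog of Rpl22, had 24.7, 21.1, 21.8 and 21.2 CPM with IL-4/IL-13 and 13.8, 14.6, 15.3 and 11.0 CPM with Sal003. The groups did not overlap, with a log2 change of -0.70 ± 0.14 (adjusted p = 0.00019). Rpl5, which carries 5S rRNA into the large subunit with Rpl11, had 15.3, 16.4, 13.5 and 15.3 CPM and then 10.2, 12.5, 9.73 and 11.1 CPM (-0.47 ± 0.088, adjusted p = 7.4e-05). Rpl10a was at 104, 92.5, 103 and 91.2 CPM with Sal003 (-0.43 ± 0.071, adjusted p = 2e-05) and Rps15 at 247, 243, 276 and 226 CPM (-0.40 ± 0.10, adjusted p = 0.0016). In these 3 genes, too, the Sal003 libraries lay below all IL-4/IL-13 libraries. Rpl15 changed by -0.36 ± 0.093 (adjusted p = 0.0019).

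Of the 4 members higher with Sal003, 3 were paralogs or binding partners. Rps27l, a paralog of Rps27 and a known p53 target, had 82.2, 77.4, 72.2 and 75.0 CPM with IL-4/IL-13 and 91.1, 95.8, 86.2 and 103 CPM with Sal003 (0.29 ± 0.077, adjusted p = 0.0027, 0.058 without mouse 5). Rpl7l1, a nucleolar relative of Rpl7, changed by 0.19 ± 0.055 (adjusted p = 0.0054, 0.053 without mouse 1). Rps19bp1 changed by 0.22 ± 0.092 (adjusted p = 0.045), which was not called without mouse 1 (adjusted p = 0.19), mouse 4 (0.13) or mouse 5 (0.24). Rpl4 rose to 856, 833, 885 and 821 CPM (0.18 ± 0.046, adjusted p = 0.0022). With total counts the rises of Rps19bp1, Rpl7l1 and Rpl4 were not called (adjusted p = 0.25, 0.15 and 0.12). Without mouse 1, 6 members were lower and 2 higher, and the number of higher members was 8 without mouse 2 and 2 without mouse 5.

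In the oligomycin libraries named Oligo, 25 members were higher and 6 lower than with IL-4/IL-13 alone, with a median log2 fold change of 0.13, against 34.0% of all genes higher and 32.2% lower. Without naive mouse 2, 39 were higher and 9 lower (35.1% and 33.8% of all genes). Of the large subunit members 13 were higher and 5 lower, and of the small subunit members 10 were higher and 1 lower. The largest member change, that of Rpl37a, was under 2.5-fold, which 12.7% of all genes passed.

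Rpl4 had 1134, 1107, 1152 and 1085 CPM in the Oligo libraries, above every other library of the study, and its log2 change from IL-4/IL-13 was 0.58 ± 0.046 (adjusted p = 4.7e-11). Rps19bp1 was at 23.8, 23.6, 23.7 and 23.3 CPM (0.59 ± 0.090, adjusted p = 3e-06). Rps24, a small subunit protein with alternatively spliced ends, rose from 294, 307, 286 and 270 CPM to 385, 386, 408 and 382 CPM (0.43 ± 0.11, adjusted p = 0.0011). In each of these genes the groups did not overlap. Rps15a (0.42 ± 0.096, adjusted p = 0.00046), Rpl30 (0.41 ± 0.082, adjusted p = 9.6e-05) and Rpl12 (0.38 ± 0.089, adjusted p = 0.0005) rose as well.

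The members that fell in the Oligo libraries included the 3 with the largest falls under tunicamycin. Rpl37a was at 124, 117, 140 and 112 CPM (-0.72 ± 0.12, adjusted p = 8.6e-06), between the tunicamycin and the IL-4/IL-13 values. Rps15 was at 231, 221, 236 and 215 CPM (-0.54 ± 0.10, adjusted p = 4.3e-05) and Rpl10a at 104, 99.0, 98.4 and 92.9 CPM (-0.41 ± 0.071, adjusted p = 1.6e-05). None of these overlapped the IL-4/IL-13 libraries. Rpl15 changed by -0.29 ± 0.092 (adjusted p = 0.0083) and Rpl11 by -0.21 ± 0.082 (adjusted p = 0.03), the latter not called without mouse 1 (adjusted p = 0.077) or mouse 5 (0.21), nor with total counts (0.074).

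**Figure D5:**
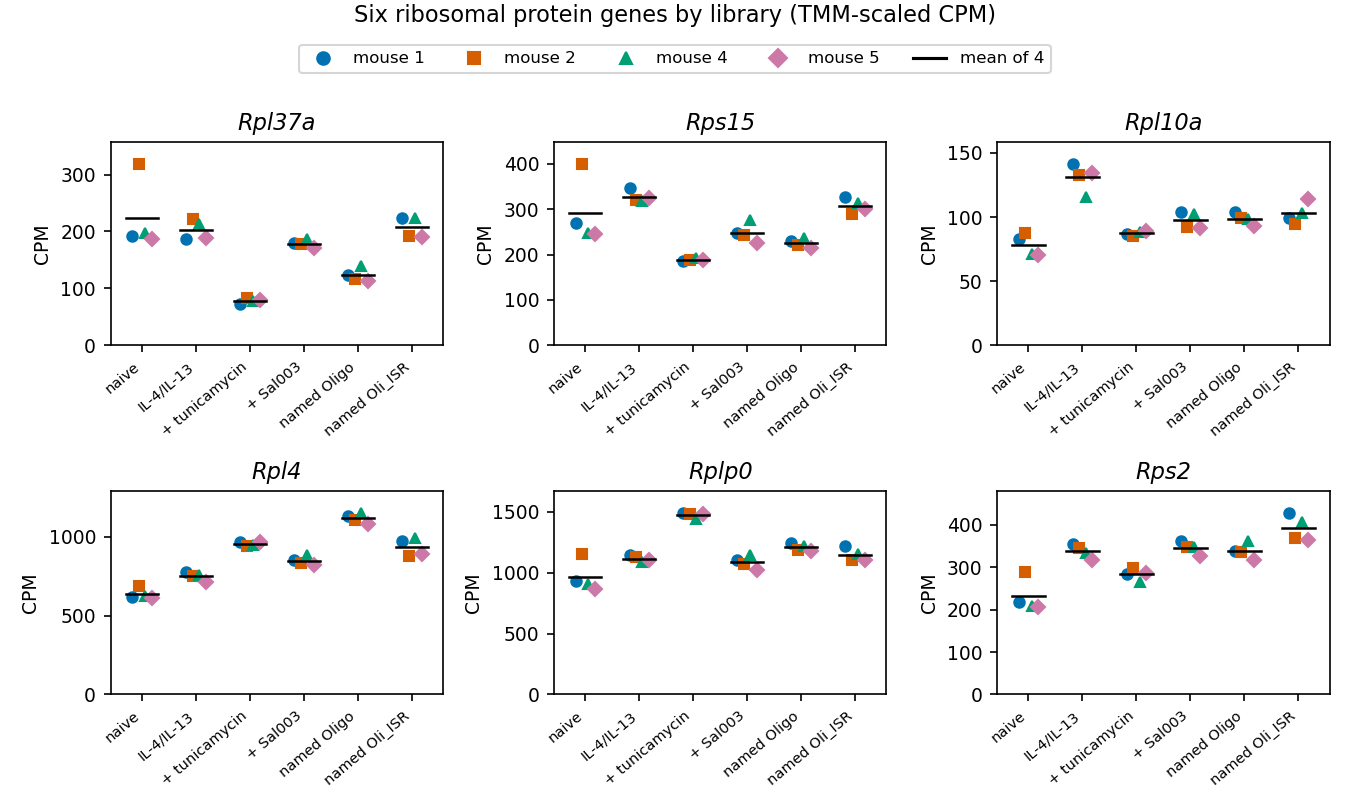
CPM (TMM scaled) of 6 members in 24 libraries, with a symbol per mouse and a line for the mean of 4 mice in each group. Rpl37a and Rps15 are lowest with tunicamycin (71.8 to 82.9 CPM and 187 to 194 CPM), Rpl4 is highest in the Oligo libraries (1085 to 1152 CPM) and Rplp0 is highest with tunicamycin (1445 to 1491 CPM).

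In the oligomycin libraries named Oli_ISR, 13 members were higher and 4 lower than with IL-4/IL-13 alone, with a median log2 fold change of 0.05, against 27.9% of all genes higher and 26.4% lower. Without naive mouse 2, 22 were higher and 5 lower (29.1% and 29.3% of all genes). With total counts for scaling 5 were higher and 5 lower, and the median of the members changed sign to -0.02, while this scaling moved the median of all genes by -0.07. The median of the members was 0.0310, 0.0778 and 0.0165 without mouse 1, 2 and 4. The largest change, that of Rpl10a, was well under 2.5-fold, which 7.96% of all genes passed.

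Rpl4 was at 972, 878, 994 and 891 CPM in the Oli_ISR libraries (0.32 ± 0.046, adjusted p = 2.4e-06). Rpl17, beside the tunnel exit, changed by 0.29 ± 0.068 (adjusted p = 0.00067). Rpl10a was at 99.5, 94.9, 103 and 114 CPM (-0.35 ± 0.071, adjusted p = 0.00019), below all 4 IL-4/IL-13 libraries. These 3 calls were kept without any single mouse. Other calls were lost in these smaller fits, with fold changes of similar size. Rps19bp1 (0.28 ± 0.091, adjusted p = 0.011) was at 0.24 to 0.26 without mouse 1, 4 or 5 (adjusted p = 0.059 to 0.11). Rps20 (0.27 ± 0.11, adjusted p = 0.035) was at 0.22 to 0.28 in these fits (adjusted p = 0.082 to 0.22), and Rpl27 (-0.29 ± 0.11, adjusted p = 0.03) at -0.31 to -0.28 (adjusted p = 0.062 to 0.09). Rps27 (0.28 ± 0.087, adjusted p = 0.0088) was lost without mouse 1 (0.067) or 5 (0.12), and Rpl5 (-0.27 ± 0.086, adjusted p = 0.0094) without mouse 1 (0.064). The number of higher members was 3, 22, 4 and 3 without mouse 1, 2, 4 or 5, and 2 were lower without mouse 1, 4 or 5.

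Both oligomycin groups were then compared with each other, which asks what ISRIB changed, with the direction open because of the labels. Oligo libraries had 7 members higher and 5 lower than Oli_ISR libraries, with a median log2 difference of 0.07, against 19.9% of all genes higher and 21.3% lower. Without naive mouse 2, 19 were higher and 7 lower (23.2% of all genes in each direction). With total counts 34 were higher and 2 lower with a median of 0.18, but this scaling also moved the median of all genes by 0.12. Without mouse 1 the median of the members was 0.10. The largest difference, that of Rpl37a, was under 2.5-fold, which 2.62% of all genes passed.

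Rpl37a was at 223, 192, 224 and 190 CPM in the Oli_ISR libraries, overlapping the IL-4/IL-13 values, and all 4 Oligo libraries lay below them (-0.75 ± 0.12, adjusted p = 1.3e-05). Rps15 was at 326, 289, 313 and 301 CPM in the Oli_ISR libraries and was lower in each Oligo library (-0.44 ± 0.10, adjusted p = 0.00081). Rpl4 (0.26 ± 0.046, adjusted p = 5e-05), Rpl27 (0.42 ± 0.11, adjusted p = 0.0027), Rpl13a (0.40 ± 0.10, adjusted p = 0.0025) and Rps19bp1 (0.30 ± 0.088, adjusted p = 0.007) were higher in the Oligo libraries. Rpl10a, in contrast, showed no called difference between the oligomycin groups (-0.06 ± 0.071, adjusted p = 0.52).

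Smaller differences between the oligomycin groups were not called in some fits with 3 mice. Rps24 (0.27 ± 0.11, adjusted p = 0.048), Rps2 (-0.21 ± 0.078, adjusted p = 0.031) and Rpl7a (-0.16 ± 0.053, adjusted p = 0.014) lost their call without mouse 1, 4 or 5 (adjusted p = 0.058 to 0.25). Their log2 differences were then 0.25 to 0.29 for Rps24, -0.22 to -0.16 for Rps2 and -0.17 to -0.13 for Rpl7a. Rps18 (-0.27 ± 0.085, adjusted p = 0.013) lost it without mouse 1 (0.12) or 4 (0.058). The falls of Rps18, Rps2 and Rpl7a were also not called with total counts (adjusted p = 0.13, 0.32 and 0.46). Without mouse 1 or mouse 4, 4 members were higher and 2 lower, and 3 were lower without mouse 5.

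With tunicamycin 37.2% of the members were lower and 11.5% higher, against 37.7% and 38.7% of all genes. In the Oligo libraries 32.1% were higher and 7.69% lower, against 34.0% and 32.2% of all genes. The falls with tunicamycin and the rises in the Oligo libraries were thus near the shares of all genes, and the calls the other way were fewer. Both groups were then compared directly, a comparison chosen after the separate values had been seen. Tunicamycin had 47 members lower and 3 higher than the Oligo libraries, with a median log2 difference of -0.25, against 32.1% of all genes lower and 31.4% higher. Without naive mouse 2, 56 were lower and 4 higher (31.5% and 35.3% of all genes). Large subunit members were lower in 29 of 42 cases and small subunit members in 18 of 28. The largest difference was again that of Rpl37a, under the 2.5-fold that 14.2% of all genes passed.

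Beside Rpl37a (-0.66 ± 0.12, adjusted p = 3.7e-05), the largest differences were those of Rpl9 (-0.51 ± 0.099, adjusted p = 7.1e-05), Rpl39 (-0.46 ± 0.091, adjusted p = 9.2e-05), Rpl17 (-0.46 ± 0.068, adjusted p = 2.1e-06) and Rpl22 (-0.44 ± 0.080, adjusted p = 3.1e-05), all in the large subunit. For Rpl9 the tunicamycin libraries ranged from 122 to 143 CPM and the Oligo libraries from 186 to 213 CPM. Rplp0 (0.29 ± 0.061, adjusted p = 0.00023), Rpl7l1 (0.21 ± 0.055, adjusted p = 0.0019) and Rpl15 (0.23 ± 0.092, adjusted p = 0.03, 0.075 without mouse 5) were the 3 members higher with tunicamycin. Without mouse 1, 28 members were lower, and without mouse 4, 24 were lower and 5 higher.

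The members did not move as a block. Across the 4 comparisons of an inhibitor with IL-4/IL-13, 21 members were called in none and 3 in all, namely Rpl4 and Rps19bp1, which were higher in each, and Rpl10a, which was lower in each. Another 6 (Rpl27, Rpl27a, Rpl6, Rpl7a, Rpl9 and Rps2) were higher in some and lower in others. Of these, Rpl27a, Rpl6 and Rpl9 were lower with tunicamycin and higher in the Oligo libraries. How many of all genes show such patterns was not counted, so they do not set the members apart from other genes. All 4 comparisons share the IL-4/IL-13 libraries. Among the 24 members higher after IL-4/IL-13, 11 were lower with tunicamycin, when 37.7% of all genes were lower. Both comparisons use the IL-4/IL-13 libraries with opposite sign, so a deviation of these libraries alone could give a rise followed by a fall.

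Of the P stalk proteins, Rplp0 was higher with tunicamycin, as described above, and rose with IL-4/IL-13 from 933, 1154, 907 and 869 CPM in naive cells by 0.21 ± 0.061 (adjusted p = 0.0046, 0.051 without mouse 1). Rplp1 had 591 to 645 CPM with tunicamycin against 565 to 621 CPM with IL-4/IL-13 (0.07 ± 0.11, adjusted p = 0.54). Rplp2 had 140, 149, 146 and 147 CPM against 188, 174, 169 and 168 CPM and missed the threshold (-0.26 ± 0.12, adjusted p = 0.054). Whether the changes of these proteins differ was not tested. The 3 proteins form 1 complex on the ribosome, and their summed share of counts was 0.223% to 0.238% with tunicamycin and 0.181% to 0.201% with IL-4/IL-13. This sum is without TMM scaling and is mostly Rplp0 (1445 to 1491 CPM with tunicamycin), so it does not show that the 3 genes rose together. Rplp2 was called higher after IL-4/IL-13 (0.30 ± 0.12, adjusted p = 0.037), but not without mouse 1 (0.26), 4 (0.21) or 5 (0.17).

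Rpl11 and Rpl5 bind 5S rRNA together. Rpl11 fell with tunicamycin from 49.4, 46.4, 41.7 and 48.9 CPM to 33.2, 33.2, 36.1 and 33.8 CPM, by -0.45 ± 0.083 (adjusted p = 3e-05), whereas Rpl5 changed by -0.06 ± 0.085 (adjusted p = 0.56). With Sal003 it was Rpl5 that passed the test, as given above, and Rpl11 did not (-0.16 ± 0.083, adjusted p = 0.12). Whether the changes of both genes differ was not tested. In the Oligo libraries both were called lower, Rpl11 by -0.21 ± 0.082 as given above. Rpl5 changed there by -0.19 ± 0.086 (adjusted p = 0.049), which was not called without mouse 1 (0.12), 2 (0.19) or 5 (0.064), nor with total counts (0.14).

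Several members are known for functions beyond the ribosome. Rps27a, made as a fusion with ubiquitin, was higher with tunicamycin (0.19 ± 0.071, adjusted p = 0.016) and in the Oligo libraries (0.22 ± 0.071, adjusted p = 0.0073, 0.083 without mouse 4). Rpsa, the laminin receptor precursor, rose with IL-4/IL-13 from 290, 420, 272 and 256 CPM to 440, 416, 404 and 400 CPM (0.42 ± 0.098, adjusted p = 0.00059), and naive mouse 2 lay within the IL-4/IL-13 range. Rps6, the target of the mTORC1-dependent S6 kinases, had only 3.72 to 7.99 CPM in all libraries and was called higher in the Oligo libraries (0.30 ± 0.12, adjusted p = 0.026), but not without mouse 1 (0.092), 2 (0.069) or 5 (0.088).

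Among the paralogs, Rps27l rose with IL-4/IL-13 (0.37 ± 0.078, adjusted p = 0.00026) and in the Oligo libraries (0.26 ± 0.077, adjusted p = 0.0043, 0.055 without mouse 4). Rpl22l1 rose with IL-4/IL-13 (0.48 ± 0.14, adjusted p = 0.0042, 0.068 without mouse 1) but changed by -0.07 ± 0.14 with tunicamycin (adjusted p = 0.66), where Rpl22 itself changed by -0.37 ± 0.080 (adjusted p = 0.00018). Rpl7l1 rose with tunicamycin (0.16 ± 0.055, adjusted p = 0.012). Rps4l, at a mean of 6.49 CPM, passed the test in none of the 7 comparisons (adjusted p = 0.26 to 0.84), nor at the largest change of 0.31 ± 0.23 after IL-4/IL-13.

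Members with and without a TOP motif at the start were set side by side. With tunicamycin, 11 of 32 with the motif were lower and 1 higher, and 13 of 26 without it were lower and 6 higher, where 37.7% of all genes were lower and 38.7% higher. After IL-4/IL-13, 13 of 32 and 7 of 26 were higher, against 30.1% of all genes. In the Oligo libraries 11 of 32 and 7 of 26 were higher, against 34.0% of all genes. The difference between these classes was not tested. The class also depends on the annotated start: Rpl10, Rpl26 and Rps16 lacked the motif at their RefSeq starts but had it at a GENCODE transcript start. Many members went the other way, among them Rpl12, Rps24, Rps18, Rps19 and Rps9. They had the motif in the RefSeq window but at no GENCODE start, where the C had to be the first base. The annotation places 59 snoRNA genes inside 30 members, and 13 of these 30 were higher in the Oligo libraries against 12 of the other 48. With tunicamycin 11 of the 30 and 18 of the other 48 were lower (36.7% and 37.5%). After IL-4/IL-13, 10 of the 30 and 14 of the other 48 were higher (33.3% and 29.2%). This difference was not tested either.

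Related gene lists were counted in the same way. Mitochondrial ribosomal proteins, encoded by 77 genes over the same count minimum, were higher in 46 and lower in 5 cases after IL-4/IL-13, when 30.1% of all genes were higher and 30.4% lower. With tunicamycin 39 of the 77 were higher and 19 lower, against 38.7% and 37.7% of all genes. In the Oligo libraries 33 were higher and 17 lower, against 34.0% and 32.2% of all genes. The 7 chaperones and export factors of ribosomal proteins (Grwd1, Bccip, Heatr3, Tsr2, Pdcd2, Pdcd2l and Ltv1) were all higher with tunicamycin and all higher in the Oligo libraries. Ltv1, which helps to mature the small subunit, led with tunicamycin at 1.34 ± 0.046 (adjusted p = 1.2e-18), and Pdcd2, a chaperone of Rps2, led in the Oligo libraries at 1.18 ± 0.075 (adjusted p = 6.1e-13).

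Of 13 translation factors and other proteins with known TOP mRNAs, 8 were lower and 1 higher with tunicamycin, against 37.7% and 38.7% of all genes. Eif3f was at -0.56 ± 0.071 (adjusted p = 1.3e-07) and Nap1l1 at 0.28 ± 0.045 (adjusted p = 3.3e-06). In the Oligo libraries 4 were higher and 3 lower, against 34.0% and 32.2% of all genes. Eef1a1, the main elongation factor, led the rises at 0.40 ± 0.043 (adjusted p = 1e-08) and Hnrnpa1 the falls at -0.33 ± 0.066 (adjusted p = 0.0001). Among 19 genes of the mTORC1 and LARP1 pathway, 9 (47.4%) were higher and 7 (36.8%) lower with tunicamycin, against 38.7% and 37.7% of all genes. In the Oligo libraries 8 (42.1%) were higher and 5 (26.3%) lower, against 34.0% and 32.2% of all genes. Sesn2, a leucine sensor that restrains mTORC1, was at 2.51 ± 0.063 (adjusted p = 1.8e-21) and 2.06 ± 0.063 (adjusted p = 4.2e-19), and Sesn3 at -3.11 ± 0.12 (adjusted p = 2.3e-17) and -2.98 ± 0.12 (adjusted p = 1.2e-16). Of the ribosomal genes that the name rule leaves out, Fau (-0.42 ± 0.11, adjusted p = 0.00096) was lower with tunicamycin, and Rack1 was higher in the Oligo libraries (0.28 ± 0.074, adjusted p = 0.0018).

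Markers of other cells moved with the groups. The 6 neutrophil and precursor markers (Ngp, Camp, Ltf, Elane, Mpo and S100a8) summed to 29.6 to 49.0 CPM in naive cells, 17.6 to 31.0 CPM with IL-4/IL-13, 0.11 to 0.27 CPM with tunicamycin, 3.32 to 5.65 CPM with Sal003, 1.57 to 3.00 CPM in the Oligo libraries and 10.8 to 15.2 CPM in the Oli_ISR libraries. Of the 5 tested, all 5 were lower with tunicamycin, with Sal003 and in the Oligo libraries, against 37.7%, 24.6% and 32.2% of all genes. The 3 fibroblast markers summed to 14.0 to 81.5 CPM with IL-4/IL-13 and 3.35 to 24.1 CPM with tunicamycin. The macrophage markers summed to 11719 to 13655 CPM with IL-4/IL-13, 17260 to 18676 CPM with tunicamycin and 9179 to 9844 CPM in the Oligo libraries. Single markers went both ways: of the 8, 4 were called higher and 3 lower with tunicamycin, against 38.7% and 37.7% of all genes. In the Oligo libraries 3 were higher and 4 lower, against 34.0% and 32.2% of all genes. T cell, B cell and mast cell markers summed to at most 0.056, 1.26 and 0.87 CPM in any library, and the 2 dendritic cell markers to between 4.47 and 6.47 CPM with IL-4/IL-13 and 0.81 to 1.70 CPM with tunicamycin. The part of any of these in the members' changes was not tested. Exons of 44 members overlap a gene on the opposite strand and those of 7 a gene on the same strand, and since it is not stated whether the counting used strand, reads of such partners cannot be told apart.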

How the data were processed

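The deposited values used here are raw gene counts, which the authors obtained by trimming reads with Cutadapt 1.8, removing ribosomal and low-complexity reads with fastq_screen and reaper, aligning to GRCm39 with STAR 2.7 and counting with htseq-count 0.9.1. The table's 5 rows without a gene held 12.7% to 15.2% of reads, among them reads with several matches, and were left out. TPM values (RSEM 1.2.31) were not used because their columns could not be given to libraries by name.

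Counts of 13679 genes (filterByExpr) were fitted with edgeR 4.0.16 in R 4.3.3, with TMM factors and 1 coefficient per group over 24 libraries. Members were called at a Benjamini-Hochberg adjusted p under 0.05 with no minimum fold. SE was the log2 fold change divided by the square root of F. The script was tested on simulated counts. Named members were the 5 largest rises and falls per comparison among those called with 1 direction in all 4 mice, those nearest the count minimum, those with extreme levels, the paralogs and a list by function. Members and lists were chosen with earlier results of these data known. Alternatives were DESeq2 1.42.0, RLE factors, total counts, TMM without the members, other filters, only the groups compared, a block for the mouse, leaving out each mouse, and leaving out naive mouse 2, which was added after seeing the data. Libraries of 1 mouse deviated together (median correlation 0.24, above 0.1 in 56 of 60 pairs, against -0.05 for different mice), and they come from the same mouse by their labels. Coordinates are from GRCm39, and start windows from RefSeq.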

Additional observations from a re-analysis of the deposited data

Results flagged for a closer look

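In groups of 4 mice, a library whose gap to its nearest neighbour took more of the group's range than Dixon's critical value at the 95% level was singled out. Of 114 groups examined, 13 held such a library and 12 of these were naive mouse 2. Chance alone gives about 1 group in 20 for independent groups, but these groups share the same 24 libraries. In naive mouse 2 all 78 members lay above the mean of the other naive libraries. Its 12 flags therefore describe 1 deviating library and are not separate events. Naive mouse 2 had 1.82% of its counts on the members and was the highest naive library for Rpl11 (54.4 CPM), Rpl12 (117 CPM), Rpl37a (319 CPM), Rplp1 (732 CPM), Rplp2 (211 CPM), Rps15 (400.3 CPM), Rps19bp1 (18.5 CPM), Rps2 (290 CPM), Rps24 (394 CPM), Rps27l (75.1 CPM) and Rps9 (868 CPM). Outside the naive group only Rps24 in the Oligo library of mouse 4 was singled out (408 CPM). Over all 78 members in 6 states, 59 of 468 groups held such a library, 48 of them naive mouse 2. In that library 7.41% of reads had several matches, against 6.24% to 6.47% in the other naive libraries, and 2.45% were ambiguous between genes, against 2.19% to 2.26%. The cause of this deviation was not tested.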

How the results depend on the processing

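No called difference reversed under the alternatives run, but the median log2 fold change of the members in Oli_ISR against IL-4/IL-13, which carries no test, changed sign from 0.05164 to -0.02246 with total counts, a scaling that moved the median of all genes by -0.07. With only the groups compared in the fit, 11 members were higher and 0 lower after IL-4/IL-13 (edgeR), 44 were lower with tunicamycin, 7 were higher and 29 lower with Sal003, 40 were higher and 11 lower in the Oligo libraries, 21 were higher in the Oli_ISR libraries and 14 were higher in Oligo than in Oli_ISR. With DESeq2, RLE factors or no filter, 1 member was lower after IL-4/IL-13. Total counts gave 1 higher and 29 lower with Sal003 (median log2 fold change -0.1654), 5 higher in Oli_ISR, and 34 higher and 2 lower in Oligo against Oli_ISR (median 0.1829). At least 10 counts in every library gave 8 higher in Oli_ISR. Without naive replicate 2 the numbers higher and lower were 63 and 1 after IL-4/IL-13, 14 and 36 with tunicamycin, 7 and 23 with Sal003, 39 and 9 in Oligo, 22 and 5 in Oli_ISR, 19 and 7 in Oligo against Oli_ISR, and 4 and 56 in tunicamycin against Oligo. Leaving out each mouse in turn gave 9 to 58 higher and 1 lower after IL-4/IL-13, 9 to 14 higher and 18 to 35 lower with tunicamycin (median -0.1349 to -0.07876), 2 to 8 higher and 6 to 14 lower with Sal003, 17 to 37 higher and 4 to 6 lower in Oligo, 3 to 22 higher and 2 to 3 lower in Oli_ISR, 4 to 9 higher and 2 to 6 lower in Oligo against Oli_ISR, and 2 to 5 higher and 24 to 53 lower in tunicamycin against Oligo. With the replicate block, which pairs libraries of a mouse, 28 members were higher after IL-4/IL-13 and 31 lower with tunicamycin, and all 90 calls described for single members were kept. Of these 90 calls, 36 were lost under at least 1 alternative, up to 31 of them without replicate 1, and each kept its direction. Apart from DESeq2 and the fit without naive mouse 2, the share of all genes called was not counted under these alternatives. Shifts in the number of called members there cannot be told from shifts over all genes. The fits without a mouse have fewer samples. Beyond that, the cause of these shifts was not tested. With all rows of the table in the denominator the mean share on the members was 1.335% with IL-4/IL-13, 1.313% with tunicamycin, 1.226% with Sal003, 1.514% in Oligo and 1.367% in Oli_ISR. Depth limits the members near the count minimum, such as Rpl38, Rpl27 and Rps6 with 2822 to 2927 counts over 24 libraries. The share of members with a TOP motif was 20.69% with the C exactly at the start and 34.62% over GENCODE starts.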
